A study of Mus musculus with 6 samples.

Results

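The circadian clock genes described here are Arntl (which encodes BMAL1), Clock, Per1, Per2, Per3, Cry1, Cry2, Nr1d1, Nr1d2 and Dbp. They were taken by symbol from a table of 24421 rows, and all 10 were found in it. The table holds RNA-seq counts of cultured group 2 innate lymphoid cells (ILC2), tissue lymphocytes without antigen receptors that answer IL-33 with type 2 cytokines. All cells came from the brain of C57BL/6 mice, a common inbred strain, were sorted by surface markers the labels do not name, and spent 2 weeks in medium with 20% fetal calf serum, IL-7, IL-2, IL-33 and SCF (stem cell factor). The 3 young libraries are from mice 2 to 3 months old, and the 3 aged libraries are from mice 20 to 22 months old, labelled old by the submitters. Nothing in the labels ties libraries of a group to separate mice or cultures, and the p-values then rest on a spread between libraries that may be technical. The clock time at which cells were sorted, fed or harvested is not given in the labels.

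The mammalian clock is a transcription loop that runs in nearly all cells. BMAL1 and CLOCK pair on E-box elements and switch on the Per and Cry genes, whose proteins return to the nucleus and block that pair, and the Nr1d genes, which encode the REV-ERB repressors of Arntl. The same pair drives Dbp, which encodes an output factor that binds D-box elements. Serum, glucocorticoids and cAMP induce Per genes acutely in cultured cells, and cells in a dish lose a common phase unless such a signal resets them. In bulk RNA a change in phase, in amplitude and in the share of cells in step cannot be told apart, nor can fewer cells of a type and less RNA per cell.

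Library totals ran from 16477157 to 20804291 counts, and 11805 genes passed the filter on low counts, all 10 clock genes among them. Levels are given in CPM, here counts relative to the summed counts of the tested genes, scaled by TMM, a method that sets libraries against each other by their typical gene. A single count was worth 0.0407 to 0.0674 CPM, which limits the precision of the weakest genes. The 12 ILC2 markers summed to 12414 to 15003 CPM in young and 12631 to 14714 CPM in aged libraries, a sum made up mostly of Il5 and Id2. Of the 11 tested markers 2 were called higher, Id2 among them, and 5 lower. Gata3, the lineage factor of ILC2, fell from a mean of 412.0 to 190.8 CPM, Klrg1, a surface receptor of mature ILC2, fell from a mean of 86.6 to 1.45 CPM, and Kit had 0 counts in the aged libraries. The T cell genes Cd3e, Cd4, Cd8a and Cd5, the B cell genes Cd79a, Ms4a1 and Pax5, and the macrophage gene Csf1r had 0 counts in the 6 libraries. The T cell list summed to 25.2 to 36.9 CPM in young and 25.0 to 44.8 CPM in aged libraries, mostly from Lat and Cd3g, with 0 members called. The B cell list summed to 13.7 to 22.9 and 33.2 to 58.3 CPM, all from Cd79b, which was called higher. The NK cell and ILC1 list summed to 2.24 to 4.69 and 9.85 to 24.3 CPM, mostly from Prf1, which was called higher. The 8 microglia and macrophage markers as a list summed to 9.26 to 21.7 CPM in young and 60.9 to 99.1 CPM in aged libraries, with 3 members called higher and 1 lower, and Tmem119 and P2ry12 holding most of the aged sum. The list did not move as one. Adgre1 had 79, 48 and 34 counts in young and 0, 0 and 0 in aged libraries 1 to 3, and Cx3cr1 had 110, 119 and 14 against 0, 0 and 22. The neuron and glia list summed to 21.2 to 36.6 CPM in young and 17.4 to 18.4 CPM in aged libraries, mostly from Mbp, with 0 members called. The mast cell and basophil list summed to 1.75 to 6.41 and 0.597 to 8.49 CPM, with 0 members called.

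Of the 10 clock genes, 1 was higher in aged libraries, 0 were lower and 9 did not pass the test (edgeR quasi-likelihood, Benjamini-Hochberg adjusted p under 0.05 over all tested genes). The gene that rose was Dbp, at a fitted 3.06-fold. Over all tested genes 11.2% were called higher, 8.14% lower and 19.4% either way, so 1 call among 10 genes is near the background. The 0 for falls was also 0 at an unadjusted p under 0.05, where 15.4% of all tested genes were lower, and 0 with DESeq2 and limma-voom. These counts do not show that no clock gene fell. The 95% interval of the log2 change reached down to -4.35 for Per2 and to -2.72 for Nr1d1. At an unadjusted p under 0.05 Dbp was again the sole clock gene to pass, where 31.5% of all tested genes did. The median log2 change of the 10 genes was 0.14, against -0.10 over all tested genes, and 5 of the 10 estimates lay above 0. With library totals in place of TMM both medians were negative, at -0.27 and -0.52.

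**Figure D1:**
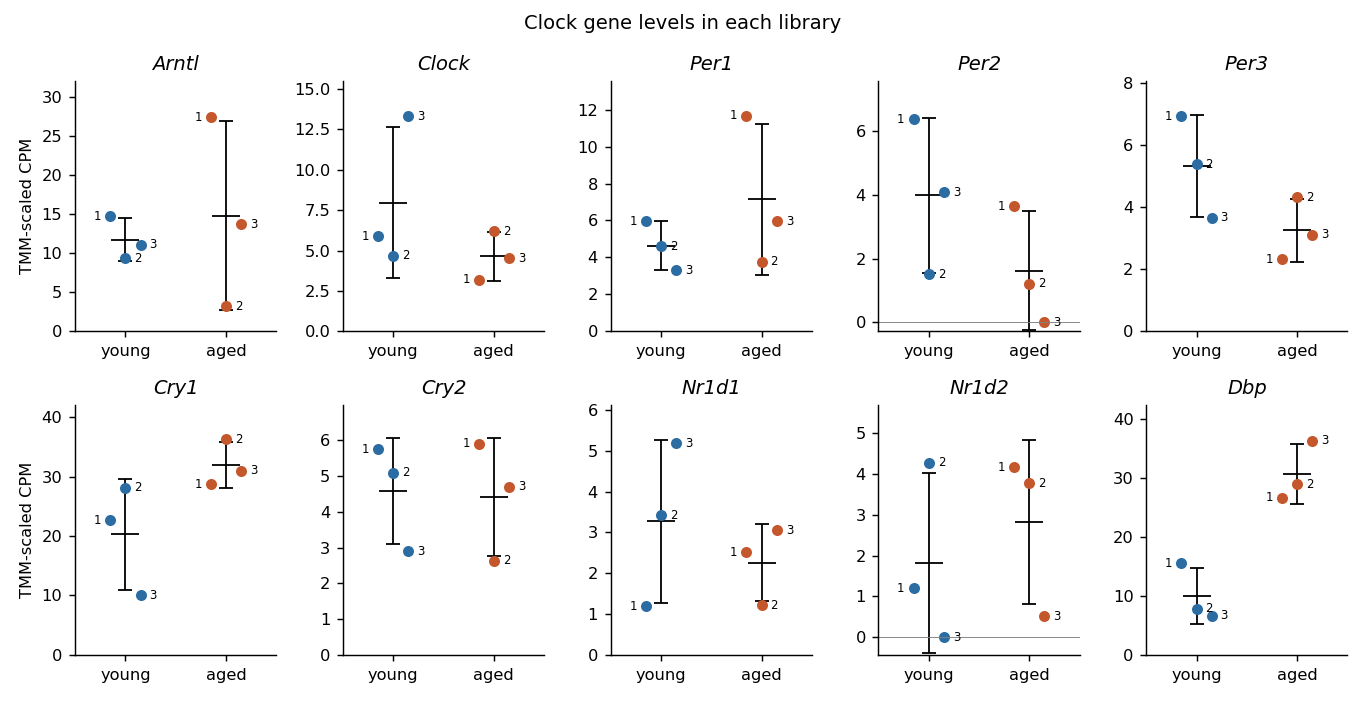
Levels of the 10 clock genes in each library (y axis, TMM-scaled CPM on a linear scale that differs between panels; blue young, orange aged; the number beside a point is the library; bars are mean ± SD, n = 3). The aged points lie above all young points for Dbp (26.7 to 36.3 against 6.66 to 15.5 CPM) and, by a small gap, for Cry1, and the groups overlap for the other 8 genes.

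Dbp encodes a PAR bZIP transcription factor and is among the direct outputs of BMAL1 and CLOCK. It lies on chromosome 7 (chr7:45705088-45710203, plus strand, GRCm38). Its level was 15.5, 7.86 and 6.66 CPM in young libraries 1 to 3 and 26.7, 28.9 and 36.3 CPM in aged libraries 1 to 3. All 3 aged libraries stood above all 3 young ones, and young library 1 was the closest to them. The means were 10.01 ± 4.79 and 30.6 ± 5.04 CPM (SD, n = 3 each), and the log2 change was 1.61 ± 0.41 (SE; 95% interval 0.72 to 2.51; edgeR adjusted p = 0.0174).

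The direction of the Dbp rise held under all 15 other settings, with log2 changes of 1.19 to 2.09, and the call held under 11 of them. It was lost without young library 2 (adjusted p = 0.0624), without aged library 3 (0.0597), with library totals as the scaling (log2 change of 1.19, adjusted p = 0.0575), and with a length and GC correction fitted together with a replicate block (0.0529). Of the 2993 exon bases of Dbp, 539 overlap exons of Sphk2 on the other strand, and the strand setting of the counting is not given in the sources used here. Sphk2, a sphingosine kinase gene, had means of 42.3 (young) and 39.4 CPM (aged), with a log2 change of -0.10 ± 0.25 (SE; adjusted p = 0.83, edgeR). The summed microglia and macrophage, B cell, and NK cell and ILC1 markers given above were also higher in the aged libraries, and the summed neuron and glia markers were lower. The part of these lists in the Dbp result was not tested.

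The closest relatives of Dbp are Tef and Hlf, the other PAR bZIP genes, whose products bind the same D-box. These 2 genes are described because of that kinship, chosen after their values were seen. Tef was at 9.60, 13.1 and 8.65 CPM in young libraries 1 to 3 and at 2.39, 2.90 and 0.318 CPM in aged libraries 1 to 3. The groups did not overlap, with all aged libraries below all young ones, opposite to Dbp. Its log2 change was -2.48 ± 0.83 (SE), which missed the threshold in edgeR (adjusted p = 0.0587) and passed in DESeq2 (0.0153) and with library totals (0.0241). Over all 15 settings its adjusted p ran from 0.0153 to 0.192.

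Hlf was at 177.8, 173.1 and 118.8 CPM in young libraries and at 96.9, 80.1 and 133.4 CPM in aged libraries 1 to 3. The groups overlapped, since aged library 3 stood above young library 3. The log2 change of Hlf was -0.60 ± 0.23 (SE; adjusted p = 0.0969, edgeR). Per kb of exon, the scale on which genes can be compared, Hlf led the 3 relatives in both groups, at 23.4 ± 4.91 in young and 15.5 ± 4.08 CPM per kb in aged libraries (SD, n = 3 each). Dbp was at 3.34 ± 1.60 and 10.2 ± 1.68 CPM per kb, and Tef at 1.33 ± 0.30 and 0.237 ± 0.174 CPM per kb. The difference between the changes of the 3 genes was not tested.

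**Figure D2:**
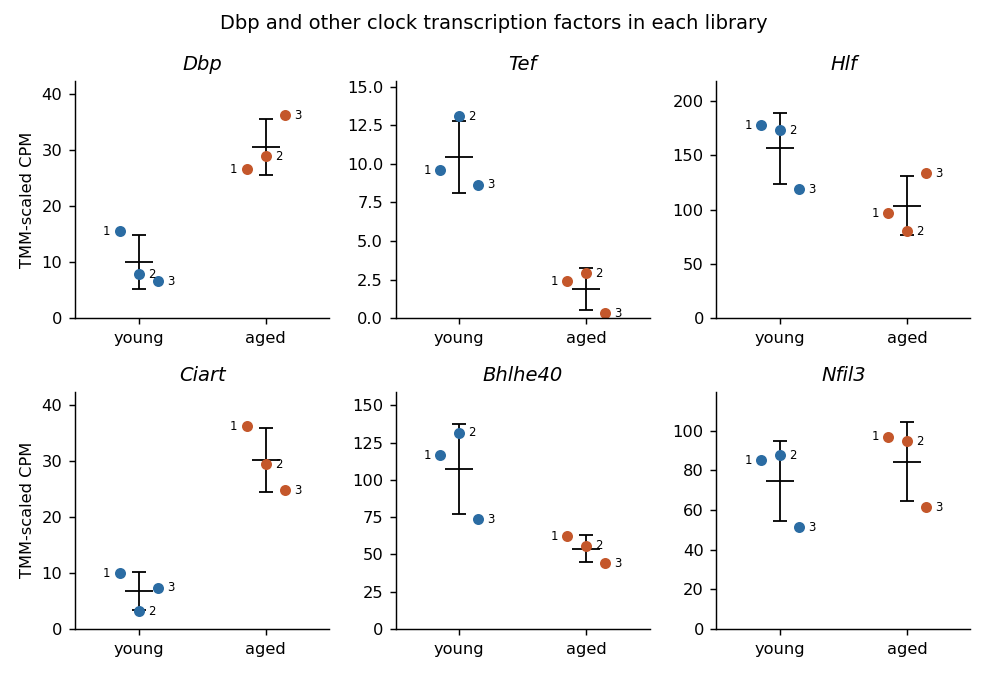
Dbp beside 5 other clock transcription factor genes in each library (y axis, TMM-scaled CPM on linear scales that differ between panels; blue young, orange aged; bars are mean ± SD, n = 3). Dbp and Ciart lie higher in all aged libraries and Tef and Bhlhe40 lower, while Hlf and Nfil3 overlap between the groups.

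The activators of the loop did not pass the test. Arntl (chr7:113207465-113314126, plus strand) was at 14.7, 9.37 and 11.1 CPM in young libraries and at 27.4, 3.23 and 13.7 CPM in aged libraries 1 to 3. The aged libraries held both the highest and the lowest Arntl value of the 6, and the aged SD of 12.1 CPM was close to the aged mean of 14.8 CPM. Its log2 change was 0.33 ± 0.64 (SE; 95% interval -1.07 to 1.74; adjusted p = 0.781, edgeR). Without aged library 1 the estimate turned to -0.47, and with library totals to -0.07. It rose to 0.81 without aged library 2 and to 0.93 with the length and GC correction, so no direction can be given for Arntl.

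Clock (chr5:76209868-76304792, minus strand), the partner of BMAL1, was at 5.90, 4.69 and 13.3 CPM in young and at 3.18, 6.20 and 4.51 CPM in aged libraries 1 to 3. Young library 3 stood apart above the other 5 libraries, among which the groups overlapped. The log2 change was -0.78 ± 0.68 (SE; 95% interval -2.27 to 0.71; adjusted p = 0.487, edgeR). Without young library 3 it was -0.16, and with the length and GC correction -0.15. Clock is the longest member, with 13727 bp of exon.

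The Period genes encode the repressors that are rate-limiting in the negative arm and that respond fastest to outside signals. Per1 (chr11:69095217-69109960, plus strand) was at 5.95, 4.60 and 3.31 CPM in young and at 11.7, 3.77 and 5.97 CPM in aged libraries 1 to 3. Aged library 1 was the highest, and aged library 2 lay within the young range. The log2 change of Per1 was 0.63 ± 0.69 (SE; 95% interval -0.90 to 2.15), and without aged library 1 it was 0.08.

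Per2 (chr1:91415982-91459324, minus strand) had 122, 37 and 80 counts in young and 55, 18 and 0 counts in aged libraries 1 to 3. The 0 in aged library 3 allows up to 0.191 CPM, a limit of 3 counts that covers counting error only. The other aged libraries, at 3.65 and 1.21 CPM, overlapped the young range of 1.51 to 6.37 CPM. Its log2 change was -1.29 ± 1.39 (SE; 95% interval -4.35 to 1.77; adjusted p = 0.59, edgeR), and it ran from -0.71 without aged library 3 to -2.70 without aged library 1.

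Per3 (chr4:151003652-151044665, minus strand), which is dispensable for the core rhythm, was at 6.94, 5.38 and 3.66 CPM in young and at 2.32, 4.31 and 3.11 CPM in aged libraries 1 to 3. The groups overlapped through young library 3 and aged library 2. Its log2 change of -0.71 ± 0.77 (SE; 95% interval -2.40 to 0.98) shrank to -0.08 with the length and GC correction, and its exon length of 9608 bp places it among the longest 20% of tested genes.

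The Cryptochrome genes encode the strongest repressors of BMAL1 and CLOCK. Cry1 (chr10:85131700-85185064, minus strand) was at 22.7, 28.1 and 10.02 CPM in young and at 28.7, 36.3 and 31.0 CPM in aged libraries 1 to 3. The lowest aged library lay just above the highest young one, and young library 3 was far below the rest. The means were 20.3 ± 9.28 and 32.0 ± 3.88 CPM (SD, n = 3 each), and the log2 change was 0.66 ± 0.38 (SE; 95% interval -0.18 to 1.498; adjusted p = 0.277, edgeR). On the fold scale that interval runs from 0.88 to 2.83, and on the log2 scale it is the narrowest among the 9 genes without a call. Without young library 3 the estimate was 0.36.

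Cry2 (chr2:92403646-92434043, minus strand) was at 5.74, 5.09 and 2.90 CPM in young and at 5.90, 2.63 and 4.70 CPM in aged libraries 1 to 3. The groups covered the same range, and the log2 change was -0.05 ± 0.76 (SE; 95% interval -1.73 to 1.62, or 0.301 to 3.08 on the fold scale). The log2 ratio of Cry1 to Cry2 counts within a library, which no library scaling can move, was 1.98, 2.46 and 1.79 in young and 2.28, 3.79 and 2.72 in aged libraries 1 to 3. The ratios overlapped between groups, with aged libraries 2 and 3 above the young range.

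The REV-ERB genes Nr1d1 and Nr1d2, nuclear receptors that bind heme and repress Arntl, were the weakest of the set in counts together with Per2. Nr1d1 (chr11:98767932-98775333, minus strand) was at 1.20, 3.42 and 5.19 CPM in young and at 2.52, 1.21 and 3.05 CPM in aged libraries 1 to 3, with the aged values inside the young range. Its log2 change was -0.53 ± 0.99 (SE; 95% interval -2.72 to 1.65), and 0.00 without young library 3. Exons of Nr1d1 share 8.5% of their length with Thra, the thyroid hormone receptor gene on the other strand, which had means of 5.34 (young) and 6.48 CPM (aged).

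Nr1d2 (chr14:18204054-18239127, minus strand) had 23, 105 and 0 counts in young and 63, 56 and 8 counts in aged libraries 1 to 3. Each group held a library near 0 (the 0 in young library 3 allows up to 0.153 CPM), and the log2 change was 0.62 ± 1.502 (SE), with an interval on the fold scale of 0.155 to 15.2. It ran from 0.07 without young library 3 to 2.24 without young library 2. The log2 ratio of Arntl to Nr1d1 counts, a target and the gene of its repressor, was 3.62, 1.45 and 1.096 in young and 3.44, 1.42 and 2.17 in aged libraries 1 to 3. These ratios spanned nearly the same range in both groups. The log2 ratio of Per2 to Arntl was -1.21, -2.64 and -1.45 in young libraries and -2.91 and -1.42 in aged libraries 1 and 2, and aged library 3 had no Per2 count.

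**Figure D3:**
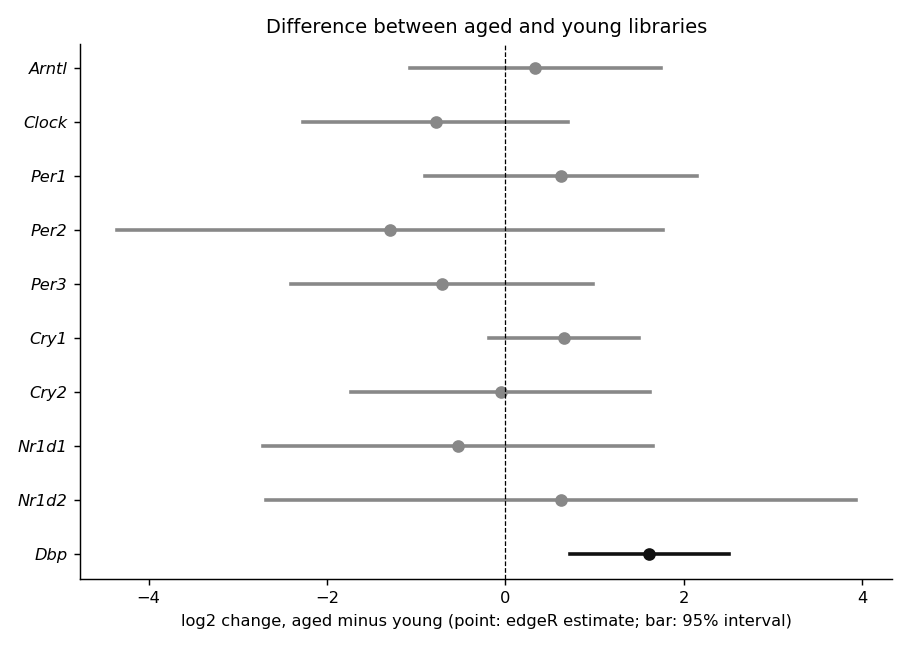
Log2 change of each clock gene (x axis, aged minus young; points are edgeR estimates, bars their 95% intervals, n = 3 per group; black marks an adjusted p under 0.05). Dbp is the sole gene whose interval stays above 0 (0.72 to 2.51), and the intervals of Per2 and Nr1d2 are the widest.

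The spread between libraries of a group was wide for most members. Counting noise alone would give a within-group chi-square near its degrees of freedom; the observed ratio ran from 7.23 (Per3) to 80.8 (Arntl), with a median of 31.3 in the 10 genes and 33.5 over all tested genes. The biological coefficient of variation had a median of 63.8% in the 10 genes and 37.2% over all tested genes, beside median levels of 5.19 and 19.4 CPM. It was 34.3% for Cry1 and 35.9% for Dbp, the genes with the most counts, and 111.3% and 121.7% for Per2 and Nr1d2. Young library 1 had the highest level within its group for 6 of the 10 genes, and young library 3 the lowest for 6. Aged library 1 was the highest for 5 and the lowest for 4, and aged library 2 the highest for 3 and the lowest for 4.

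Groups that did not overlap were found for 2 of the 10 genes, Dbp and Cry1, both higher in aged libraries, and for 0 lower. The background was 38.2% of tested genes without overlap, 19.3% with aged libraries higher and 18.8% with them lower. With library totals in place of TMM, which moves the median log2 change of all tested genes from -0.10 to -0.52, Dbp stayed without overlap, Cry1 overlapped, and Clock and Per3 had all aged libraries below all young ones. Directions are therefore relative to the TMM scaling.

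In young libraries the order of levels per kb of exon was Cry1, Dbp, Arntl, Nr1d1, Per1, Cry2, Per2, Clock, Per3 and Nr1d2. Cry1 had a mean of 6.07 (range 3.00 to 8.42) and Dbp of 3.34 (2.23 to 5.18) CPM per kb, and the ranges overlapped. Dbp and Arntl, at 1.56 (1.25 to 1.96) CPM per kb, were the sole neighbours whose ranges did not overlap, and from Arntl down to Nr1d2, at 0.338 CPM per kb, each gene overlapped with the next. In aged libraries Dbp (10.2, range 8.90 to 12.1) and Cry1 (9.57, range 8.59 to 10.9) led together, with overlapping ranges. Both lay above Arntl, at 1.96 (0.430 to 3.64) CPM per kb, without overlap, and the 8 lower genes again overlapped with their neighbours down to Per2 at 0.277 CPM per kb. With the longest annotated transcript as the length, the Dbp and Arntl ranges overlapped in young libraries, and Dbp lay above Cry1 without overlap in aged libraries. Arntl then lay above Nr1d1 without overlap in young libraries. The longest annotated transcript of Arntl (3995 bp) has 1 exon, so the place of Arntl on this length is uncertain.

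**Figure D4:**
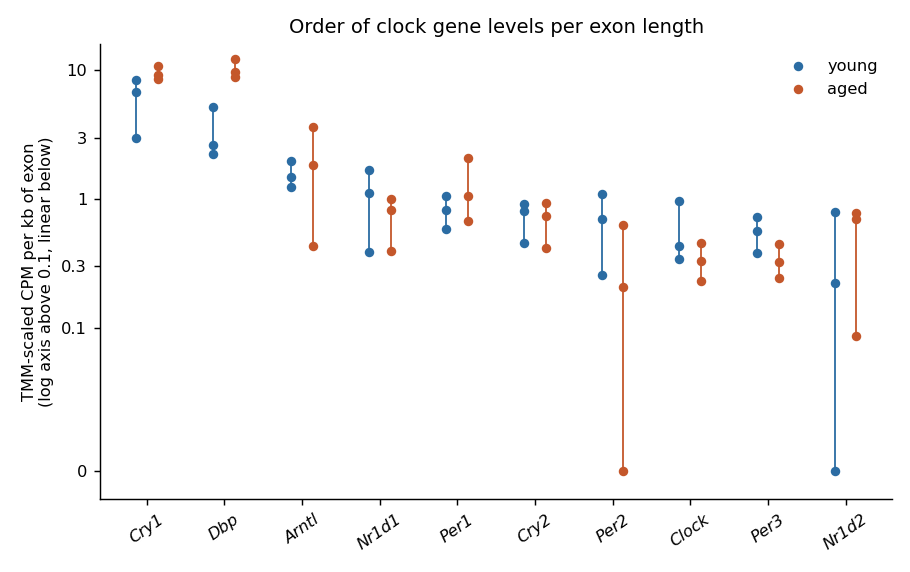
Level of each clock gene per kb of exon (y axis, TMM-scaled CPM per kb, log scale above 0.1 and linear below; x axis, genes in the order of their young mean; points are libraries, lines their range). Cry1 and Dbp stand above the other 8 genes in aged libraries, and 0 counts mark Per2 in an aged and Nr1d2 in a young library.

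The elements that clock factors bind were searched for in the 250 bases before the annotated starts, because the gene that rose, Dbp, encodes a D-box factor and the Per and Cry genes are E-box targets. RefSeq promoters (GRCm38.p6) were found for 9 members, all except Per2, in 13 windows. The D-box (TTATGTAA or TTACGTAA, both strands) occurred in the window of Per3 alone, with 2 copies, 205 and 158 bases before the start, and it occurs in 0.931% of all 32851 windows. The E-box (CACGTG, its own reverse complement) occurred in 2 of the 13 windows, those of Per1 and Cry1, and in 6.02% of all windows. The ROR element (TAGGTCA, both strands), which REV-ERB and ROR proteins bind, and the CRE (TGACGTCA, its own reverse complement), which CREB binds, occurred in 0 of the 13 windows, and in 2.23% and 1.55% of all windows. None of these motifs overlapped another, and a match describes letters, not a bound site. Sites outside these windows or with other letters were not searched. A window without a match therefore does not show that a gene lacks the element. The stretches with matches are shown 5′ to 3′ on the strand of each gene, with the matched letters in capitals. The Per3 stretch is chr4:151044805-151044890 (minus strand), the Per1 stretch chr11:69098744-69098823 (plus strand) and the Cry1 stretch chr10:85185075-85185154 (minus strand), and none of the 3 lies in an annotated exon. The Per1 stretch lies between exons within the Per1 gene, before a RefSeq start inside the gene, and the Per3 stretch lies within the span of Camta1.
Per3: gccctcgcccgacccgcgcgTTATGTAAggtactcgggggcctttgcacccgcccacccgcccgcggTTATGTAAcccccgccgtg
Per1: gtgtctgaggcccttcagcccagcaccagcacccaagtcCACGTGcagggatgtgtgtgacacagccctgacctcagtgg
Cry1: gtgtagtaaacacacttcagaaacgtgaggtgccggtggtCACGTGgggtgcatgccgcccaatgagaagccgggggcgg
The log2 changes of the 3 genes, given above, were -0.71 for Per3, 0.63 for Per1 and 0.66 for Cry1, and none passed the test.

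Of 11 other transcription factor genes of the clock 7 passed the filter, 1 rose, 1 fell, and the median log2 change was -0.05. Calls of 1 in each direction among 7 genes are near the background of 11.2% higher and 8.14% lower. Ciart encodes CHRONO, a repressor of BMAL1 and CLOCK with a strongly rhythmic transcript. Its level was 9.92, 3.18 and 7.38 CPM in young and 36.2, 29.5 and 24.8 CPM in aged libraries 1 to 3, with all aged libraries well above all young ones. The log2 change was 2.14 ± 0.46 (SE; adjusted p = 0.00767, edgeR), and the call held under all 15 other settings, with log2 changes of 1.73 to 2.53.

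Bhlhe40 encodes DEC1, an E-box repressor that lymphocytes also use to control cytokine genes. It was at 116.7, 131.7 and 73.8 CPM in young and at 62.1, 55.7 and 44.0 CPM in aged libraries 1 to 3. The groups did not overlap, and the log2 change was -0.99 ± 0.25 (SE; adjusted p = 0.0167, edgeR). The call was lost without young library 1 (0.0797) or 2 (0.0772) and without aged library 2 (0.0509) or 3 (0.0574). It was also lost in edgeR with the length and GC correction, alone (log2 change of -0.59, adjusted p = 0.1) or with a replicate block (-0.58, adjusted p = 0.0657).

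Nfil3 encodes E4BP4, the repressor that competes for the D-box and that innate lymphoid cells need for their development. It was at 85.0, 87.8 and 51.4 CPM in young and at 97.0, 94.6 and 61.4 CPM in aged libraries 1 to 3, with overlapping groups and a log2 change of 0.17 ± 0.26 (SE; 95% interval -0.40 to 0.75). Rora, which activates Arntl in the clock and is required for ILC2, had overlapping groups at 146.9 ± 24.1 and 141.7 ± 13.6 CPM (SD, n = 3 each). Its estimate of -0.05 turned to 0.55 and passed the test with the length and GC correction (adjusted p = 0.0247). Bhlhe41, which encodes DEC2, did not pass the filter, with 0, 0 and 2 counts in young and 42, 26 and 4 counts in aged libraries 1 to 3.

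Of the genes for clock kinases, ubiquitin ligases and cofactors, 30 of 32 passed the filter, 4 fell, 0 rose and the median log2 change was -0.51. Over all tested genes 8.14% were called lower. At an unadjusted p under 0.05, 1 gene was higher and 6 were lower, against 16.1% and 15.4% of all tested genes, and DESeq2 and limma-voom gave 0 higher. The genes that fell encode parts of chromatin complexes. Ncor1, a corepressor that REV-ERB recruits, fell from 150.5 ± 12.4 to 78.9 ± 6.79 CPM and Tbl1xr1, a partner in the same complex, from 57.9 ± 9.21 to 21.2 ± 11.2 CPM. Kmt2a, a histone methyltransferase gene, fell from 59.1 ± 9.38 to 25.1 ± 4.91 CPM and Crebbp, a histone acetyltransferase gene, from 24.4 ± 6.52 to 7.58 ± 3.87 CPM (SD, n = 3 each). With the length and GC correction 0 genes of the list were lower and 1 was higher, and the list median was -0.08. The number of lower genes ran from 1 to 5 when single libraries were left out: Ncor1 passed in each case, Kmt2a failed without young library 1 (adjusted p = 0.0505), Tbl1xr1 without young library 1 or 3 or aged library 1 (up to 0.0657), and Crebbp in all but the fit without aged library 1 (up to 0.147). In these libraries the log2 change moved with exon length, with a median of 0.48 in the shortest 20% of tested genes and -0.47 in the longest 20%.

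Among 12 clock-controlled output genes, which share Tef, Hlf, Nfil3 and Bhlhe40 with the factor list and Usp2 with the list of ligases and cofactors, 1 rose and 1 fell, which is near the background of 11.2% and 8.14%. Their median log2 change of 0.02 turned to -0.40 with library totals, where that of all tested genes was -0.52. Bhlhe40, described above, was the gene that fell.

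A list of 15 cAMP and glucocorticoid genes, called inputs here, holds signal carriers and also genes that respond to such signals, Fos and Dusp1 among them. Of the 15 genes 14 were tested, 2 rose, 3 fell and 9 were not called, beside a background of 11.2% higher and 8.14% lower. Their median log2 change was -0.25, or 0.10 with the length and GC correction. Fos, an immediate early gene, rose from 17.5 ± 2.47 to 81.1 ± 13.4 CPM and Dusp1, a MAP kinase phosphatase gene, from 34.1 ± 7.15 to 64.1 ± 11.9 CPM. Nr3c1, the glucocorticoid receptor gene, fell from 129.1 ± 9.03 to 74.0 ± 6.68 CPM. Crem, a cAMP-responsive modulator, fell from 135.2 ± 32.8 to 84.2 ± 9.96 CPM and Crtc3, a coactivator of CREB, from 38.5 ± 6.60 to 20.5 ± 3.16 CPM (SD, n = 3 each). The calls of Nr3c1, Crem and Crtc3 were lost with the length and GC correction, those of Crem and Crtc3 also with RLE factors, that of Crtc3 with no filter (adjusted p = 0.057), and that of Dusp1 with library totals, without young library 1 or 3 and without aged library 2. When single libraries were left out, Crem kept its call only without young library 2 and Crtc3 only without young library 3, and the adjusted p reached 0.155 and 0.175.

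**Figure D5:**
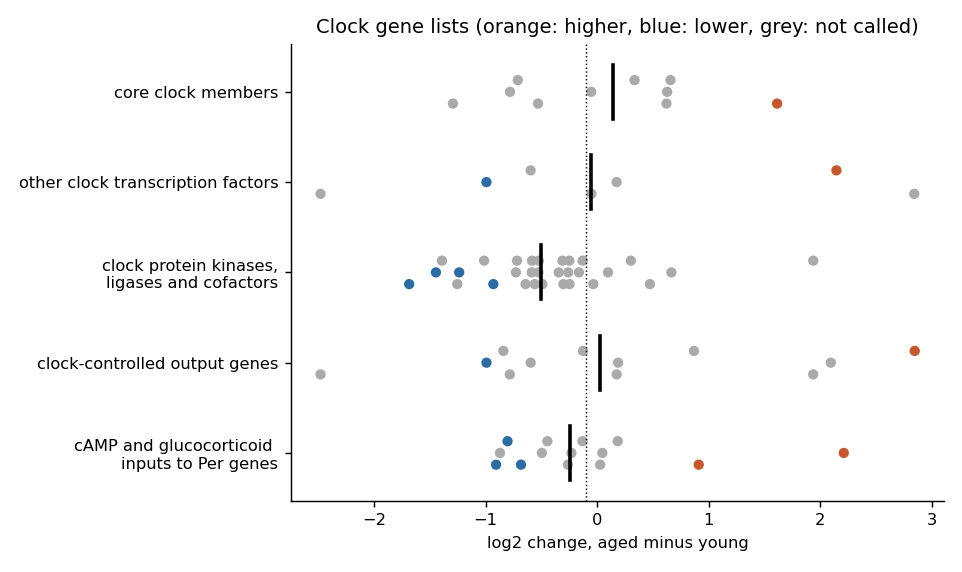
Log2 change (x axis, aged minus young) of each tested gene in the 5 clock lists (rows; orange higher, blue lower, grey without a call; thick bars are list medians, the dotted line the median of all tested genes at -0.10). The core genes spread to both sides of 0 with Dbp as the sole colored point, and the kinase, ligase and cofactor list has most points below 0.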

How the data were processed

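The authors deposited a table of raw counts per gene symbol for 6 libraries sequenced as 75 bp single-end reads. Listed in the submitters' processing notes are the build mm10, STAR 2.5.3a, Cufflinks 2.0, FastQC 1.0.0, DESeq2 1.1 and bcl2fastq 2.20.0.422. The counting tool, its annotation and strandedness were not given in the sources used. Groups come from the ages in the titles.

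Tests ran on these counts in edgeR 4.0.16 under R 4.3.3 (filterByExpr with a minimum count of 10 and total of 15, TMM, glmQLFit and glmQLFTest, Benjamini-Hochberg threshold 0.05). Standard errors of log2 changes were taken from the change and the square root of F. Lengths, positions and overlaps come from GENCODE M21 (GRCm38), with a length for 95.6% of rows. Alternatives were DESeq2 1.42.0, voom in limma 3.58.1, 2 other scalings, 2 other filters, a replicate block, length and GC offsets from mgcv 1.9.3 with and without that block, and leaving out each library. The edgeR script was tested on simulated data, with fewer changed genes than were called here. In them 19.0% of 2-fold and 58.7% of 4-fold changes were called, and 5.14% of calls were false.

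The members, lists and rule for named genes were chosen with earlier results of these data known. The rule names the 10 members, up to 8 called genes per list with a mean of at least 1 CPM in a group, and Rora, Nfil3, Bhlhe40 and Bhlhe41. Tef and Hlf were added after their values were seen, and other genes are named as markers or for an overlap of exons. One output gene that the rule names is not reported here.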

Additional observations from a re-analysis of the deposited data

How the results depend on the processing

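Among the 10 clock genes, the counts of 1 higher and 0 lower came back under DESeq2, limma-voom, RLE factors, both other filters, the replicate block and the length and GC correction. The higher count went to 0 with library totals and with the length and GC correction plus replicate block, and ran from 0 to 1 when single libraries were left out. The sign of an estimate that was not called turned for Arntl with limma-voom (-0.070), library totals (-0.070), the replicate block (-0.072) and without aged library 1, with a range of -0.47 to 0.81 over single libraries left out. It turned for Cry2 with the length and GC correction (0.38, or 0.32 with the block) and without young library 1 (0.17), young library 2 (0.05) or aged library 2 (0.21), in a range of -0.32 to 0.21, and for Nr1d1 without young library 3 (0.0026), in a range of -0.91 to 0.0026. Rora turned to 0.55 under both forms of that correction and, without young library 1 or 3, to 0.060 and 0.02, in a range of -0.17 to 0.060. Nfil3 turned to -0.25 with library totals, to -0.091 and -0.085 under the corrections, and to -0.0041 without young library 3, in a range of -0.0041 to 0.36. The causes were not tested.

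Over all tested genes library totals gave 717 higher and 2381 lower, against 1325 and 961. The length and GC correction gave 636 lower, or 471 with the block, and leaving out single libraries gave 399 to 849 lower and 915 to 1344 higher. For the other clock factors DESeq2 gave 2 lower and library totals 3 lower, and both forms of the correction gave 2 higher and 0 lower. Kinases, ligases and cofactors had 12 lower with library totals and, under both corrections, 1 higher and 0 lower. Output genes had 2 higher and 2 lower with DESeq2, 5 lower with library totals, 2 lower with no filter, and 2 higher and 0 lower under both corrections. Input genes had 1 higher and 5 lower with library totals, 1 lower with RLE factors and 0 lower under both corrections. Without single libraries the factors had 1 to 2 higher and 0 to 1 lower, the kinases, ligases and cofactors 1 to 5 lower, the outputs 1 to 2 higher and 0 to 2 lower, and the inputs 1 to 2 higher and 1 to 2 lower.

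Replicate numbers recur in both groups, but same-numbered libraries did not deviate together (correlations across genes of 0.020, 0.0088 and 0.041), although all 3 aged and 2 of 3 young libraries correlated best with their own number, young library 2 being the exception. With the replicate block 1208 genes were higher and 800 lower, and Dbp kept its call (log2 change of 1.70, adjusted p = 0.0334), while Crebbp (0.0721) and Crtc3 (0.0804) did not keep theirs. Per2, Nr1d1 and Nr1d2 had the fewest counts of the core clock genes, with 312, 313 and 255 over the 6 libraries. The ratio of their within-group chi-square to its degrees of freedom was 33.5, 14.7 and 38.3. Their spread between libraries was thus well above counting noise, so depth alone does not account for their wide intervals.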

Other observations

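Some clock paralogs stayed below the filter on low counts. Arntl2, a paralog of Arntl, had 22, 8 and 8 counts in young and 1, 20 and 0 counts in aged libraries 1 to 3. Npas2, a paralog of Clock, had 0, 0 and 18 counts in young and 5, 5 and 18 counts in aged libraries. These genes, chosen after their values were seen, have no test here.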
